A study of Homo sapiens with 8 samples.

Results

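The 10 genes described here, EGR1, EGR2, EGR3, FOS, FOSB, IER2, MCL1, SRF, ACTB and CYR61, are well-known targets of serum response factor (SRF). At some of them SRF acts with ETS-family partners. Sequencing of immunoprecipitated chromatin (ChIP-seq) gave lists of where ETS1, ELK4, GABPA, ELF1 and JUND lay in DU145 prostate cancer cells, and where ETS1 lay in PANC1 pancreatic cancer cells. All peaks whose nearest edge lay within 50 kb of a gene's start on the hg19 build were taken, which gave 88 of the 24078 peaks in the 7 deposited lists. The gene starts were given to 1 kb, so every distance below carries that uncertainty. Negative distances lie toward lower chromosome coordinates, whichever strand the gene is on.

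The series holds 8 samples, with 1 per group and no biological replicate. DU145 gave 5 immunoprecipitated samples and an input, PANC1 an ETS1 sample and an input, and no treatment or genotype is labelled in either line. The inputs were not analysed here. DU145 ETS1 came with a pair of lists, the first of 9984 peaks and the second, marked R2, of 9306, which were counted as 1 sample. Merged intervals with a peak of each are called ETS1 regions, of which there were 8183. The other lists held 2478 peaks for GABPA, 1308 for JUND, 409 for PANC1 ETS1, 337 for ELK4 and 256 for ELF1. They hold intervals only, with no count or score per peak, so the depth is unknown, the binding strength of a site cannot be given, and counts of peaks do not compare factors or lines. Nothing below is a test between conditions.

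Immediate-early genes are transcribed within minutes of growth factor stimulation, without new protein synthesis. SRF binds a sequence called the CArG box in their promoters and recruits a ternary complex factor, of which ELK4 (also called SAP-1) is one along with ELK1. The ternary complex factor contacts an ETS site beside the CArG box and is phosphorylated by ERK, the last kinase of the RAS/ERK pathway named in the title of the series. SRF itself was not among the immunoprecipitated factors. ETS1, GABPA and ELF1 share the ETS domain with ELK4 but are not known as ternary complex factors, and JUND is a subunit of AP-1, the dimer that FOS and FOSB also enter.

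Promoter sequences show which of these letters are present at the starts. The RefSeq promoter table (GRCh38.p14), which spans 250 bases before to 50 after each start, held 9 promoters of 6 of the genes, namely EGR1, EGR2, FOS, FOSB, IER2 and SRF. Both strands were searched for the exact CArG consensus, for GGAA (the ETS core), for CCGGAAGT (a strong ETS site that contains GGAA), for TGANTCA (AP-1) and for TGACGTCA (a cAMP response element). In the sequences printed here, capitals mark CArG boxes, which are 10 letters long, and ETS cores, which read GGAA or TTCC according to strand. EGR1, EGR2 and SRF are shown because they hold a CArG box. FOS and IER2, whose windows held none, are shown because an ELK4 peak lay within 2 kb of their starts. At IER2 the ELK4 interval began 1.52 kb from the start, so its own sequence was not searched. Starts of a gene are numbered in the order of the table.
EGR1, GRCh38.p14 chr5:138465229-138465528, plus strand: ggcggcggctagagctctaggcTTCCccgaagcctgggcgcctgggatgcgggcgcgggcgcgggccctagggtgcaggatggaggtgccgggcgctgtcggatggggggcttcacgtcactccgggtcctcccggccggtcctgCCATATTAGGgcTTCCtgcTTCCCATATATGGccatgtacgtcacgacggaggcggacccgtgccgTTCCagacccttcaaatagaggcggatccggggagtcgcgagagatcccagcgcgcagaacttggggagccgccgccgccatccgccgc
EGR2, start 3, GRCh38.p14 chr10:62816317-62816616, minus strand: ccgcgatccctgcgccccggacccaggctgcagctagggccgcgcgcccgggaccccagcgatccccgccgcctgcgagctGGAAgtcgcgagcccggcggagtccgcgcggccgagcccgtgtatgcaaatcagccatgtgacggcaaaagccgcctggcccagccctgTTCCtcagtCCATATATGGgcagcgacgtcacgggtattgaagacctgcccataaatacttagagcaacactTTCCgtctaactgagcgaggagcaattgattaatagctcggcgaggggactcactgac
SRF, start 1, GRCh38.p14 chr6:43171019-43171318, plus strand: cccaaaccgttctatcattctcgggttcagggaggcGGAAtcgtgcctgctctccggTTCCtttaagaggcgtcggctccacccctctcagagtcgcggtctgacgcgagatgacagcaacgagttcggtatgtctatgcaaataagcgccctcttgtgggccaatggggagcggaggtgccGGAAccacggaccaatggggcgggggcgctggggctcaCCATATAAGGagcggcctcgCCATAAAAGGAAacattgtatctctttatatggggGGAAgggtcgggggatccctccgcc
FOS, GRCh38.p14 chr14:75278578-75278877, plus strand: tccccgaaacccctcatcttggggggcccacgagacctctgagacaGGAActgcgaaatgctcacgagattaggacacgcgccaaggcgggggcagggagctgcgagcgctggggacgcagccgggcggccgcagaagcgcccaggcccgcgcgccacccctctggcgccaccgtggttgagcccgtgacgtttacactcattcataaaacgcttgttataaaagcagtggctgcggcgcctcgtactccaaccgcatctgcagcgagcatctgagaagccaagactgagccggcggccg
IER2, GRCh38.p14 chr19:13150161-13150460, plus strand: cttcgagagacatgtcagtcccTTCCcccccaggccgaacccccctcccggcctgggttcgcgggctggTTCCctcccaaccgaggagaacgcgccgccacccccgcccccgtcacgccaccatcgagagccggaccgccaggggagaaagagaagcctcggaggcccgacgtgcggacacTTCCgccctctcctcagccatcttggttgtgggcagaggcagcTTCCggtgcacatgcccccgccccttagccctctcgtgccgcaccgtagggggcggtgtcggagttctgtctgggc

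The CArG consensus was rare among promoters and present in 3 of the 9 promoters, each of a different gene. It occurred in 1.29% of all 35116 promoters in the table, 454 in number, and no gene-level test was made. EGR1 held 2, CCATATTAGG and CCATATATGG. The first lies 2 bases from a TTCC, and the second shares a base with another TTCC. SRF start 1 held CCATATAAGG and CCATAAAAGG, the latter running into a GGAA. EGR2 held CCATATATGG at start 3, 5 bases from a TTCC, and none at starts 1 and 2. No exact CArG box was found in these windows of FOS, FOSB or IER2, which says only that the letters are not in this stretch. GGAA was in all 9 promoters, but it was in 95.5% of all promoters as well. CCGGAAGT, TGANTCA and TGACGTCA were found in none of the 9, against 4.14%, 7.71% and 1.85% of all promoters.

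ELK4 lay near most of these genes. An ELK4 peak lay within 50 kb of 8 of the 10 starts, all but FOSB and SRF, although the whole list held only 337 peaks. Of 29506 tiles of 100 kb along the span of the lists, 1.12% held an ELK4 peak. Tiles take in gene-poor sequence, so tiles with an ETS1 region are a closer background. Of 5592 such tiles 5.33% held ELK4, against 7 of the 9 gene windows with an ETS1 region. ETS1 regions themselves lay within 50 kb of 9 of the 10 genes, all but EGR3, where 19.0% of tiles held one. The genes were chosen with earlier results of these data known and are textbook targets of SRF, so the counts are descriptive.

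The other lists divided the genes differently. GABPA peaks lay near 5 genes (EGR2, EGR3, IER2, MCL1 and ACTB), where 7.05% of all tiles held one. Of the 9 gene windows with an ETS1 region, 4 held GABPA, close to the 35.4% of ETS1 tiles that did. JUND peaks lay near 3 genes, FOSB, MCL1 and CYR61, against 3.64% of all tiles and 11.6% of ETS1 tiles. PANC1 ETS1 peaks lay near 5 genes, FOSB, IER2, MCL1, ACTB and CYR61, against 1.02% and 4.90%. ELF1 had no peak near any of them, and 0.841% of all tiles and 4.15% of ETS1 tiles held one. A count of 0 of 256 ELF1 peaks near the genes allows up to 1.17% of the ELF1 peaks to lie there. That bound is a share of peaks, so it does not compare with the tile shares. With so few gene windows, the absence of ELF1 cannot be told apart from either tile share.

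**Figure D1:**
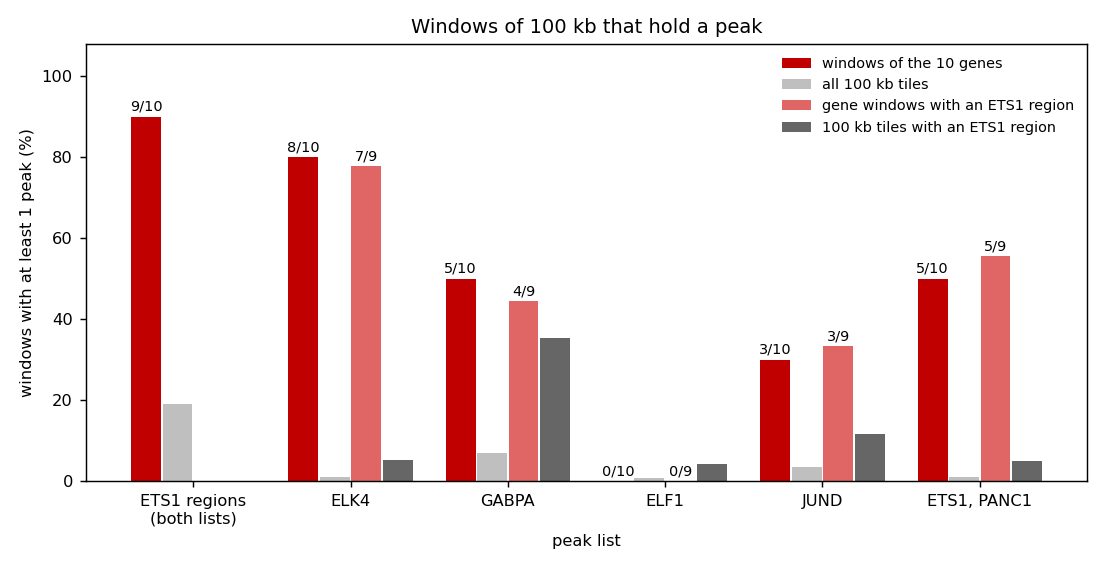
Share of 100 kb windows with at least 1 peak (vertical axis, %) for each list (horizontal axis), for the windows of the 10 genes, all tiles, gene windows with an ETS1 region and tiles with an ETS1 region. Bars for ELK4 stand at 8 of 10 and 7 of 9 beside tile shares of 1.12% and 5.33%, whereas for GABPA the bar of 4 of 9 is close to its 35.4%.

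Taken by the set of lists within 50 kb, the genes fell into 8 patterns. EGR1 and FOS shared one, ETS1 and ELK4 alone. IER2 and ACTB shared another, with ETS1, ELK4, GABPA and PANC1 ETS1. MCL1 had these and JUND, CYR61 had ETS1, ELK4, JUND and PANC1 ETS1, EGR2 had ETS1, ELK4 and GABPA, and EGR3 had ELK4 and GABPA. FOSB had ETS1, JUND and PANC1 ETS1, and SRF had ETS1 alone. The number of peaks per gene window ran from 3 at EGR3 and SRF to 23 at MCL1, with a median of 7.

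**Figure D2:**
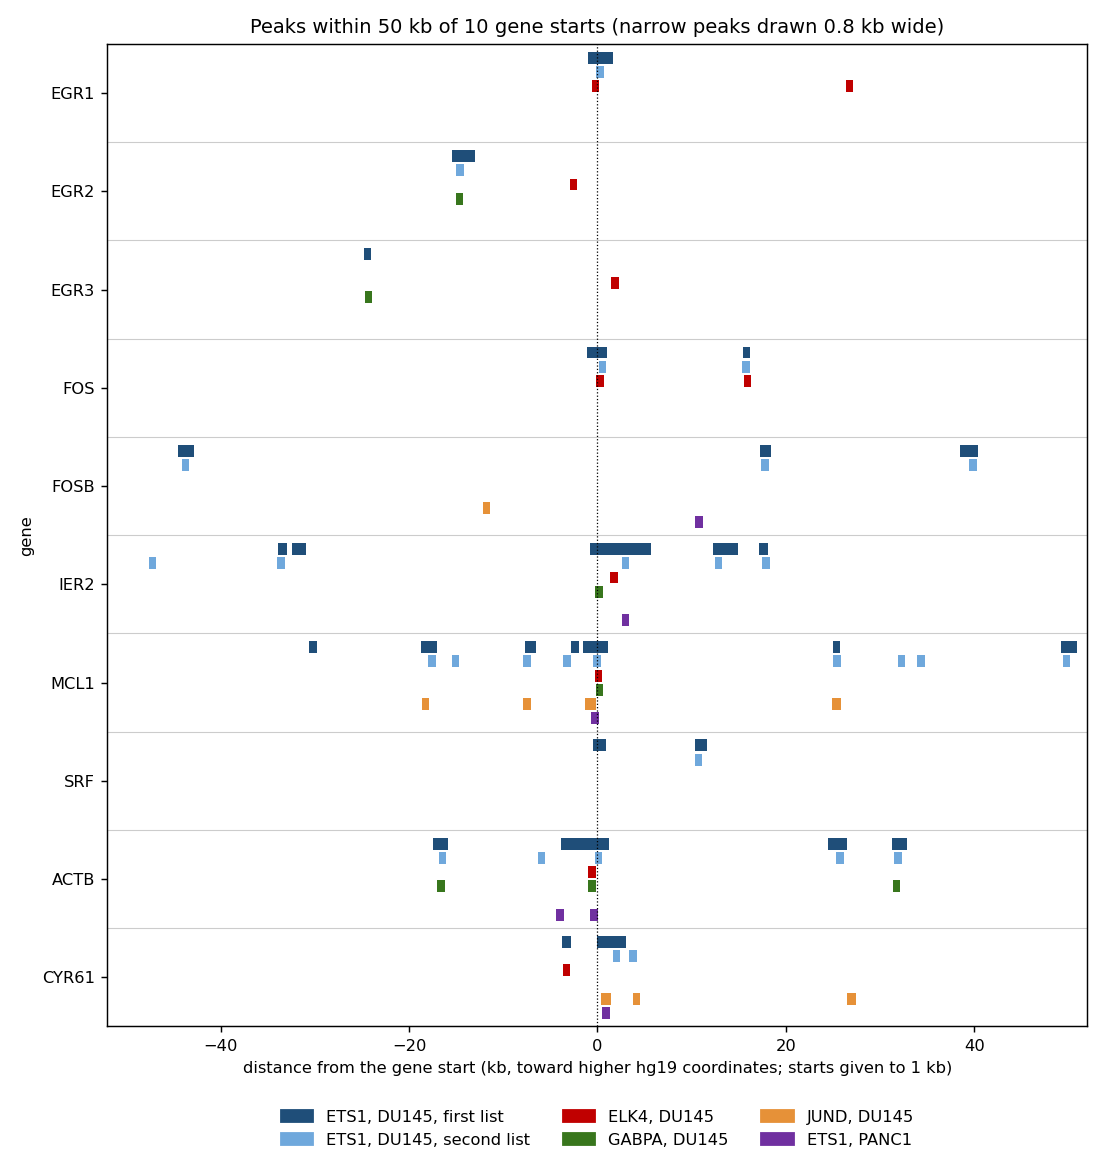
Peaks of 6 lists around each gene (rows) by distance from its start (horizontal axis, kb), where each bar is a peak and bars narrower than 0.8 kb are widened to be visible. ELK4 bars lie near the starts of EGR1, EGR2, EGR3, FOS, IER2, MCL1, ACTB and CYR61, with further ones 26.8 kb from EGR1 and 15.9 kb from FOS, and none is drawn at FOSB or SRF.

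The EGR genes encode zinc finger transcription factors that are induced together by serum. At EGR1 the ELK4 peak chr5:137800558-137801057 spanned the start, with its centre at -0.19 kb, and it was line 1 of the ELK4 list. It lay inside the ETS1 region chr5:137799987-137802690, which is 2704 bp wide, and shared 59 bp with the second-list ETS1 peak, whose centre was 441.5 bp away. No GABPA, JUND or PANC1 ETS1 peak lay within 50 kb. A further ELK4 peak, line 3, lay at chr5:137827520-137828020, 26.8 kb from the EGR1 start, where no peak of another list met it. ETF1, a translation termination factor gene, is the next protein-coding gene on that side in RefSeq.

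At EGR2 and EGR3, ELK4 lay near the start without an ETS1 peak beside it. The EGR2 peak, line 4, was chr10:64576225-64576724, with its centre at -2.53 kb. EGR2 reads toward lower coordinates, and in GRCh38.p14 its start 3, the one with the CArG box printed above, lies 2.80 kb from start 1 on that same side. Positions were not converted between builds, so the overlap itself was not measured. The ETS1 region nearest EGR2, chr10:64563539-64565985, lay at -14.2 kb and held a GABPA peak. The EGR3 ELK4 peak, line 6, was chr8:22552619-22553117, at 1.87 kb. Near EGR3 the first ETS1 list had a single peak, at -24.4 kb, where GABPA also lay, and the second list had none.

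FOS and FOSB encode AP-1 subunits that are both induced early, and their neighbourhoods differed. FOS had an ELK4 peak at its start, chr14:75744994-75745492, with its centre at 0.24 kb and line 10 of its list. It lay in the ETS1 region chr14:75743919-75746057 and shared 209 bp with the second-list ETS1 peak. Another ELK4 peak, chr14:75760673-75761166, lay at 15.9 kb and was line 2 of the list. It met an ETS1 region as well, chr14:75760444-75761192, but the ETS1 peaks there came at line 9899 of 9984 in the first list and line 9269 of 9306 in the second. At the FOS start the ETS1 lines were 2921 and 2221. Thus the 2 FOS sites stood in opposite order in the ELK4 and ETS1 lists. JDP2, which encodes another AP-1 family protein, is the next protein-coding gene beyond FOS on that side.

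At FOSB no peak of any list lay within 2 kb of the start. The nearest was a PANC1 ETS1 peak at 10.8 kb (chr19:45981555-45982036), which met no peak of DU145. A JUND peak lay at -11.8 kb and also met no other list. The 3 ETS1 regions lay at -43.6, 17.8 and 39.4 kb and held no peak of the other lists. ERCC1 precedes FOSB in RefSeq and RTN2, PPM1N and VASP follow it, and no hg19 annotation was used to place these regions at a gene.

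Only EGR1 and FOS had 2 ELK4 peaks, 27.0 and 15.7 kb apart by their centres. Such closeness was uncommon in the list. Among 100 kb tiles, 0.0203% held 2 or more. In the whole genome 8 pairs of neighbouring ELK4 peaks were at most 50 kb apart, those at EGR1 and FOS included.

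IER2 encodes a small nuclear protein of the immediate-early class. Its start lay in the ETS1 region chr19:13260202-13266660, the widest near any of the genes at 6459 bp. Its peak in the first list was wider than or as wide as 99.9% of that list. Within this region the factors stood apart. GABPA was at 0.16 kb, ELK4 at 1.77 kb (line 17) and the second-list ETS1 peak at 2.97 kb. ELK4 was separated from the GABPA interval by 1108 bp and from the ETS1 interval by 703 bp. The PANC1 ETS1 peak lay at the same place as the DU145 one, with centres 1.5 bp apart. A further 3 ETS1 regions lay at -33.4, 13.5 and 17.6 kb and held no other list.

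MCL1, an anti-apoptotic relative of BCL2, had peaks of the most lists at its start. The ETS1 region chr1:150550422-150553106 held ELK4, GABPA, JUND and PANC1 ETS1. The ELK4 peak, chr1:150551855-150552351, was line 13, and its centre lay 109.5 bp from that of GABPA and 147 bp from that of the second-list ETS1 peak. The JUND peak, chr1:150550663-150551845, ended 9 bp short of the ELK4 interval, so the pair did not overlap although the same region held both. It shared 344 bp with the PANC1 ETS1 peak. MCL1 also had JUND peaks at -18.2, -7.45 and 25.4 kb, each overlapping an ETS1 region that met no further list, and another ETS1 region at 50.1 kb with none.

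ACTB encodes beta-actin, and SRF drives it as one of many cytoskeletal targets. The ETS1 region chr7:5566083-5571178, 5096 bp wide, covered the ACTB start and held ELK4, GABPA and 2 PANC1 ETS1 peaks. The ELK4 peak chr7:5569153-5569653 and the GABPA peak shared 440 bp, with centres 38 bp apart. The second-list ETS1 peak lay beside them, 198 bp beyond the ELK4 interval. ACTB was the gene whose ELK4 peak came latest in the list, at line 236. A further 3 ETS1 regions lay at -16.7, 25.5 and 32.1 kb, of which those at -16.7 and 32.1 kb held GABPA.

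The SRF gene is itself a target of SRF, and near it ETS1 alone had peaks. The first ETS1 list had a peak across its start, chr6:43138495-43139941, at line 8236, and the second list had none there, so it did not count as an ETS1 region. The nearest ETS1 region lay at 11.0 kb. No ELK4, GABPA, ELF1, JUND or PANC1 ETS1 peak lay within 50 kb.

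CYR61, named CCN1 in RefSeq, encodes a secreted matrix-associated protein. An ETS1 region, chr1:86045967-86048997, began at its start and held JUND and PANC1 ETS1 but not ELK4. The JUND peak chr1:86046402-86047473 contained the whole PANC1 ETS1 interval, with centres 46.5 bp apart, while the second-list ETS1 peak of DU145 lay 289 bp beyond the JUND interval. ELK4 lay on the other side of the start, at -3.31 kb, as line 101. There it met a first-list ETS1 peak, at a centre distance of 19 bp, that the second list lacked. Other JUND peaks lay at 4.16 and 27.0 kb, the latter meeting no other list.

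**Figure D3:**
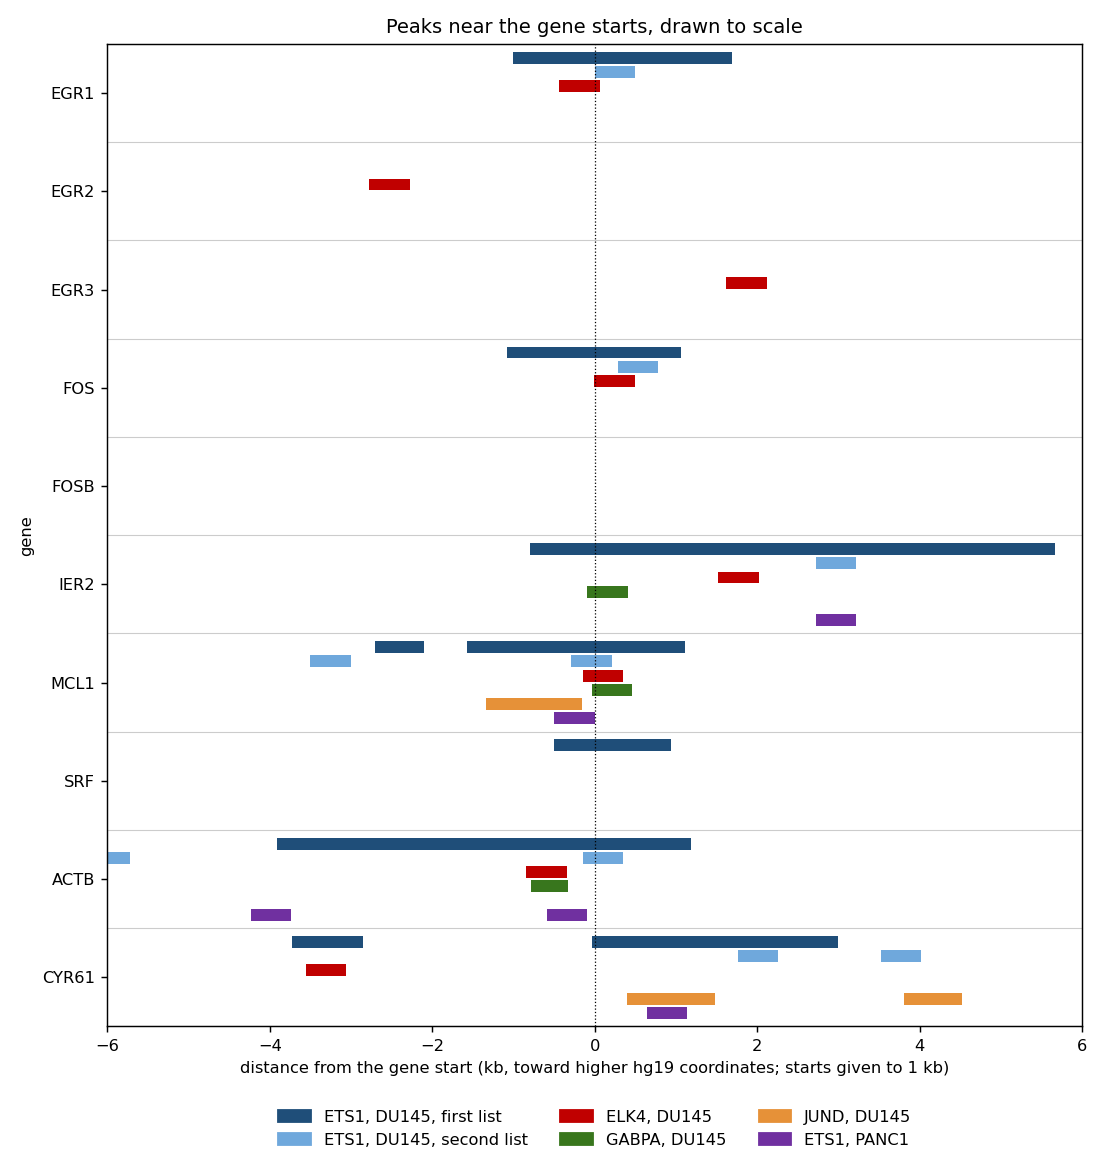
Peaks within 6 kb of each start, drawn to scale, with genes in rows, distance in kb on the horizontal axis and 1 bar per peak. At EGR2 and EGR3 an ELK4 bar stands without an ETS1 bar, at IER2 the ELK4 bar lies between GABPA and the second-list ETS1 bar, and at CYR61 ELK4 and JUND lie on opposite sides of the start.

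At the starts themselves, peaks within 2 kb were counted. ELK4 was within 2 kb of 6 starts, EGR1, EGR3, FOS, IER2, MCL1 and ACTB, while 0.0503% of 4 kb tiles held an ELK4 peak. Starts are known to 1 kb only, and the count was 4 within 1 kb, without EGR3 and IER2, and 8 within 5 kb. ETS1 regions reached 6 starts, EGR1, FOS, IER2, MCL1, ACTB and CYR61, against 1.48% of 4 kb tiles. With every interval set to 500 bp, that count was 2, EGR1 and MCL1. At FOS, IER2, ACTB and CYR61 the centres of the first-list and second-list peaks were 544.5, 537, 1471 and 529.5 bp apart. Of these 6 genes 5 also had ELK4, against 2.67% of 4 kb tiles with an ETS1 region. GABPA was within 2 kb of 3 starts (0.376% of all 4 kb tiles and 23.8% of those with an ETS1 region), JUND of 2 (0.205% and 4.81%) and PANC1 ETS1 of 3 (0.0613% and 3.18%). ELF1 was at none, against 0.0397% and 2.37%. First-list ETS1 peaks at the starts were wide. The 7 of them, SRF included, measured 1447 to 6459 bp with a median of 2704 bp, whereas the whole list had a median of 1173 bp. A wide interval reaches such a window more readily, and widths were not compared with peaks at other gene starts.

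The 22 ETS1 regions near the genes were set beside all 8183. ELK4 was held by 6 of the 22, or 27.3% (95% Clopper-Pearson interval 10.7 to 50.2%), and by 3.25% of all. GABPA was held by 6 as well, also 27.3%, which is close to its 28.1% over all regions. ELF1 was held by none, where 2.79% of all regions held it. PANC1 ETS1 was held by 4, or 18.2% (5.19 to 40.3%), against 3.62%. JUND was held by 5, or 22.7% (7.82 to 45.4%), against 4.89%, but 4 of these 5 were at MCL1. The JUND share was 5.88% (1 of 17 regions) and that of ELK4 29.4% without MCL1, which was left out after the values were seen. These shares rest on interval overlap. A stricter rule asked for a peak centre within 200 bp of the midpoint of the merged ETS1 region. By it 1 of the 22 regions met each of ELK4, GABPA, JUND and PANC1 ETS1, or 4.55% apiece. Under that rule 2.15% of all ETS1 regions met ELK4, 22.6% GABPA, 2.33% JUND and 1.97% PANC1 ETS1. Single ETS1 peak centres can lie closer than that midpoint. To second-list centres, ELK4 lay 141.5 bp away at the distal FOS site and 147 bp at MCL1. It lay 289.5 bp or more away at EGR1, the FOS start, IER2 and ACTB. PANC1 ETS1 lay 1.5 bp away at IER2 and JUND 2.5 bp at its MCL1 peak at -7.45 kb, neither counted by the midpoint rule. A share by peak centres was not computed. Peaks of 3 or more other lists were held by 3 regions, those at the starts of IER2, MCL1 and ACTB, against 0.758% of all regions. These were 6459, 2685 and 5096 bp wide, where the median of all ETS1 regions was 1273 bp. A wide interval can meet more peaks, and the share over all regions was not matched for width. None of the other lists was held by 9 of the 22, or 40.9% (20.7 to 63.6%), where 63.8% of all ETS1 regions held none. The intervals cover counting error only, and regions around 1 gene are not independent.

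Read from the ELK4 side, 10 of the 337 ELK4 peaks lay near these genes. An ETS1 region was met by 6 of the 10, where 79.2% of all 337 did so, and a first-list ETS1 peak by 7, where 82.5% did. The intervals of these shares, 26.2 to 87.8% and 34.8 to 93.3%, held the values of all ELK4 peaks. The 4 that met no ETS1 region were the peak at 26.8 kb from EGR1, those of EGR2 and EGR3, and that of CYR61. The CYR61 peak did meet a first-list ETS1 peak. GABPA was met by 2 of the 10, at MCL1 and ACTB, a share with an interval of 2.52 to 55.6%, where the share of all ELK4 peaks was 50.4%. PANC1 ETS1 was met by 2 as well, at the same genes, with the same interval, where 4.75% of all ELK4 peaks did so. With 10 peaks no difference was detectable for ETS1, GABPA or PANC1 ETS1. None met JUND or ELF1, where 5.93% and 7.42% of all ELK4 peaks did. The interval for none of 10, 0 to 30.8%, held both shares, so no difference was detectable there either.

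The distance between ELK4 and ETS1 centres was measured for the same peaks. Within 2 kb of an ELK4 centre, the nearest second-list ETS1 centre lay 441.5 bp away at EGR1, 289.5 bp at the FOS start, 141.5 bp at the distal FOS site, 1201.5 bp at IER2, 147 bp at MCL1 and 698.5 bp at ACTB. The median of these 6 was 365.5 bp. For the 264 other ELK4 peaks with such a neighbour the median was 91.5 bp, with quartiles of 33.5 and 207 bp. All 6 exceeded the median of the others, and 4 exceeded its upper quartile. CYR61 is not among them, since its ELK4 peak met the first list only, at 19 bp. Measured to first-list centres, the median was 339 bp over 7 peaks near the genes, from 19 to 772.5 bp, and 113 bp over 269 others, with quartiles of 50 and 262 bp. What the summit of a peak was is not in the lists, so interval midpoints stand in for it.

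The place of a peak's line in its list also set the ELK4 peaks apart. The ELK4 list is sorted neither by chromosome nor by position, and no source used here says what the order means. The lines near the genes were 1, 2, 3, 4, 6, 10, 13, 17, 101 and 236 of 337, with a median of 8, so 8 of the first 17 lines lay near the 10 genes. In the other DU145 lists the peaks near the genes were spread through the lines. Their median place was 41.8% of the way through the first ETS1 list, 49.2% through the second, 64.2% through GABPA and 36.0% through JUND, where for ELK4 it was 2.37%. The PANC1 list is grouped by chromosome and was left out here.

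**Figure D4:**
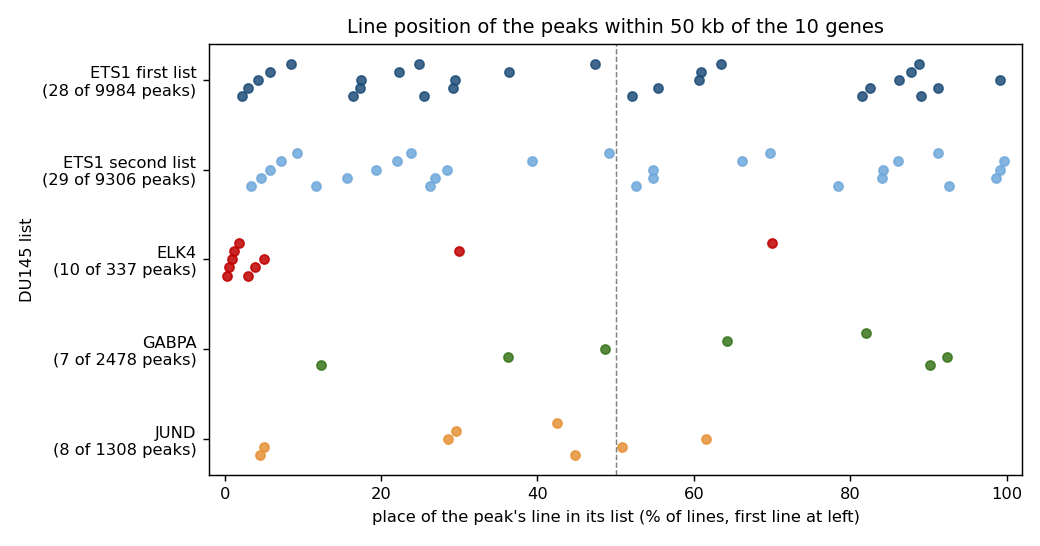
Place of each peak near the 10 genes in its DU145 list (horizontal axis, % of lines, with the dashed line at 50%), 1 point per peak and 1 row per list, with small vertical offsets for visibility. Of the 10 ELK4 points, 8 lie at the left edge, up to 5.04%, while the points of the ETS1, GABPA and JUND lists are spread along the axis.

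The PANC1 line gave 6 ETS1 peaks near these genes. Those at the starts of MCL1, ACTB and CYR61 and that at IER2 met DU145 ETS1 regions, as did a second ACTB peak at -3.99 kb, and the FOSB peak did not. EGR1, EGR2, EGR3, FOS and SRF lacked a PANC1 peak within 50 kb. That list held 409 peaks against 9984 and 9306 in the DU145 lists, so the absence of a peak there is not evidence of less binding. ELK4 was immunoprecipitated in DU145 alone.

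The window size was then varied. Of the 88 peaks, 25 had their nearest edge beyond 20 kb. The outermost peaks inside it were an MCL1 pair whose edges lay at 49.2 and 49.5 kb, and the nearest outside it were ETS1 peaks at 55.7 and 55.9 kb from FOSB. The count of genes with ELK4 was 8 with half-windows of 20 kb and of 100 kb as well. That of genes with an ETS1 region was 9 and 10, and that of genes with GABPA was 4 and 6.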

How the data were processed

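The authors deposited 7 peak lists, each line giving chromosome, start and end of an interval in bp on hg19, per the labels. The submitters' processing notes name Bowtie2 2.0.6. The sources used here do not give the peak caller, its threshold or the use of the inputs, and the lists hold no score or count per peak. Starts were read as counting from 0 and are printed counting from 1. Intervals were compared with Python 3.11.15 and intervals of shares computed with SciPy 1.17.1. Peaks sharing at least 1 bp were counted as overlapping. Background shares come from tiles of 100 or 4 kb along the span of the lists. No hg19 annotation was used, so tiles could not be centred on genes, and a wider list of serum response genes was not analysed here. The overlap and window counts were recovered in 3 of 3 runs on simulated data. With 1 sample per group no test was made. All 10 genes are named, and members, lists and motifs were chosen with earlier results of these data known. Alternatives covered window size, overlap, interval width, list subsets and ETS1 lists.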

Additional observations from a re-analysis of the deposited data

How the results depend on the processing

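Of 123 recomputed values over 17 results and 14 settings, 113 stayed within 1.5 times the reported count or inside its binomial interval and 10 did not. Not all of the 113 could move. ELF1 had no peak within 50 kb, so smaller windows, parts of its list and stricter overlap could not change its values. The PANC1 list was kept whole when earlier lines were kept. The intervals of shares are wide, 10.7 to 50.2% for ELK4. Values from 13.8% (second ETS1 list alone) to 33.3% (wider part of every list) therefore counted as staying, against 27.3% reported. The number of genes with ELK4 within 50 kb ran from 7 to 8, and within 1, 2 and 5 kb of the start it was 4, 6 and 8. With intervals of 500 bp, 2 genes had an ETS1 region at the start instead of 6. With the wider part of every list kept, GABPA lay near 2 genes within 50 kb and 1 at the start, and with the earlier lines kept, near 3 and 1. For the 200 bp rule, distance ran from a peak centre to the midpoint of the merged region. By it ELK4, GABPA, JUND and PANC1 ETS1 each met 4.55% of the ETS1 regions near the genes. With MCL1 left out, chosen after seeing the data, JUND was at 5.88%. No paired analysis was possible because each group has 1 sample. Depth per list is unknown, and the absence of a peak may reflect it, which was not tested.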

Other observations

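Among the first 20 lines of the ELK4 list, 12 lay near none of the 10 genes. Of these 12, 8 met an ETS1 region, 4 a GABPA peak, 2 an ELF1 peak, 2 a peak of JUND and 1 a PANC1 ETS1 peak. None of these was met by 2 of the 12. Peaks found in only 1 of the DU145 ETS1 lists were not counted here. Of the 8 lines near the genes, 5 met an ETS1 region and 1 a GABPA peak. The earliest of the 12 was line 5, chr17:43394469-43394967, which met no ETS1 region and no GABPA, ELF1, JUND or PANC1 ETS1 peak. Line 7, chr14:74226855-74227355, met an ETS1 region and a JUND peak. Line 19, chr1:11967633-11968118, met ETS1 in both cell lines and JUND.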
